A study of Homo sapiens with 12 samples.

Results

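Dystroglycan is the adhesion receptor that ties the cytoskeleton to the basement membrane. The transcripts of 7 genes were followed here: DAG1, which encodes dystroglycan, UTRN, SGCB and SGCE of the complex around it, and POMT1, POMT2 and POMGNT1, which start its glycosylation. They were taken by symbol from the 23064 symbols of the series, and all 7 were present in both count tables. For each symbol, the transcript with the most counts in a cell line was used. The rule that chose the genes used no measured value, although earlier results of these data were known.

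RNA was sequenced from 2 established bladder carcinoma cell lines, CAL-29 and 5637, harvested 3 days after transfection with an siRNA against KMT9α or with a control siRNA (siCtrl), in 3 libraries for each siRNA in each line, 12 in all. KMT9α is a methyltransferase encoded by N6AMT1. The sample labels write Cal29, siCT and siRNA without naming the siRNA, the deposited tables write si270, and the study's results name it as siKMT9α#1, the name used here. Each line had its own transfection reagent, siRNA concentration and medium, which cannot be told apart from the line, and the response to 1 siRNA cannot be told apart from the response to the loss of KMT9α. Nothing in the labels says whether the 3 libraries of a group came from separate cultures, so p-values measure the spread between these libraries, which may be technical.

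Dystroglycan is made as 1 precursor that is cleaved into an α subunit outside the cell and a β subunit that spans the membrane. The α subunit carries O-mannose sugar chains that bind laminins, agrin and perlecan, and the β subunit binds dystrophin or, in most tissues outside muscle, its relative utrophin. Sarcoglycans and sarcospan sit beside β-dystroglycan in the membrane. POMT1 and POMT2 act together to attach the first mannose, and POMGNT1 extends it. Epithelial cells use dystroglycan on the basal surface that faces the basement membrane.

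The siRNA target fell in every library. N6AMT1 stood at 11.4, 10.2 and 9.68 CPM (counts relative to the library total, corrected for library composition by TMM) in the siCtrl libraries of CAL-29 cells and at 2.82, 2.93 and 1.99 CPM upon knockdown. In 5637 cells it stood at 13.4, 13.2 and 13.3 CPM and fell to 3.75, 2.22 and 2.56 CPM. The level fell by 75% in CAL-29 cells and fell by 78.7% in 5637 cells. The total count of a library on these transcripts lay between 24479348.5 and 35151256.5. The chi-square between replicates was from 2.25 to 12.3 per degree of freedom, more than counting error gives. Siding with neither neighbour, siCtrl library 1 of CAL-29 cells gave 8.17 against library 2 and 12.3 against library 3. All other pairs of replicates gave at most 4.0.

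The labelled cell type was checked against marker genes. The sums of markers and the means set against 1 CPM were taken without the TMM correction. Values of single genes by library hold it. Of 12 epithelial markers, 11 had a mean above 1 CPM in CAL-29 cells and 9 in 5637 cells, whereas the muscle regulators MYOD1 and MYOG were at 0 in all 12 libraries. Of the 10 muscle markers, CASQ1, RYR1 and TNNT3 had a mean above 1 CPM in CAL-29 cells, and RYR1 and TNNT3 in 5637 cells. The summed level of the 12 epithelial markers was lower upon knockdown, from between 14345 and 15236 CPM to between 6702 and 6847 CPM in CAL-29 cells and from between 10508 and 10854 CPM to between 6314 and 6475 CPM in 5637 cells. The genes with the highest level weigh most in this sum, and not every marker fell. In CAL-29 cells KRT7 rose from 70.9, 80.4 and 80.9 to 91.1, 97.8 and 93.5 CPM. The libraries of GATA3, KRT20 and UPK3A overlapped between the CAL-29 groups. The other epithelial markers fell there, KRT8 from 4573, 4872 and 4770 to 1698, 1728 and 1779 CPM. The 5 smooth muscle markers summed to between 74 and 82.4 CPM in CAL-29 siCtrl cells and to between 29.2 and 31.9 CPM upon knockdown, whereas in 5637 cells they stood between 36.7 and 37.3 CPM with siCtrl and between 59.7 and 62.8 CPM upon knockdown. These markers did not move as a set. In 5637 cells MYH11 and SMTN alone had a mean above 1 CPM, and ACTG2 and CNN1 were at 0 upon knockdown. In CAL-29 cells CNN1, ACTG2 and LMOD1 fell below 1 CPM, and SMTN fell from 45.2, 40.3 and 43.3 to 23.9, 25.1 and 25.7 CPM. MYH11 alone rose there, from 2.90, 2.77 and 3.06 to 3.41, 3.90 and 4.45 CPM. In 5637 cells 5 fibroblast markers went from between 40.7 and 43.1 CPM to between 13.6 and 16.4 CPM and 6 neural and Schwann cell markers from between 75.4 and 82.7 CPM to between 30.2 and 33.3 CPM, while the 10 skeletal and cardiac, 4 endothelial and 5 immune markers summed to at most 18 CPM in any library. In CAL-29 cells the fibroblast markers summed to at most 5.2 CPM and the neural and Schwann cell markers to between 20 and 27.6 CPM. Of the neural and Schwann cell markers, MBP and PRX alone had a mean above 1 CPM in either line. The libraries came from established carcinoma lines, so a sum of such markers does not show that cells of these types are present. The part of these shifts in the results below was not tested. In bulk RNA, fewer cells of a type and less RNA per cell cannot be told apart.

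Upon KMT9α knockdown, the adhesion receptor DAG1 and the sarcoglycan SGCB were downregulated in both cell lines, whereas the mannosyltransferase POMT2 was downregulated in CAL-29 cells and upregulated in 5637 cells. The other 4 genes did not pass the threshold of the study, an unadjusted p below 1e-06, in either line. In CAL-29 cells 3 of the 7 genes were lower and 0 higher at this threshold, where 15.0% of the 14673 genes tested were lower and 30.0% differed in either direction. In 5637 cells 2 were lower and 1 was higher, where 17.6% of the 14335 genes tested were lower, 18.0% were higher and 35.6% differed. The median size of the log2 fold change over the 7 genes, 0.13 in CAL-29 and 0.20 in 5637 cells, stood beside 0.38 and 0.32 over all genes tested. All 7 genes passed the filter on low counts in both lines.

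**Figure D1:**
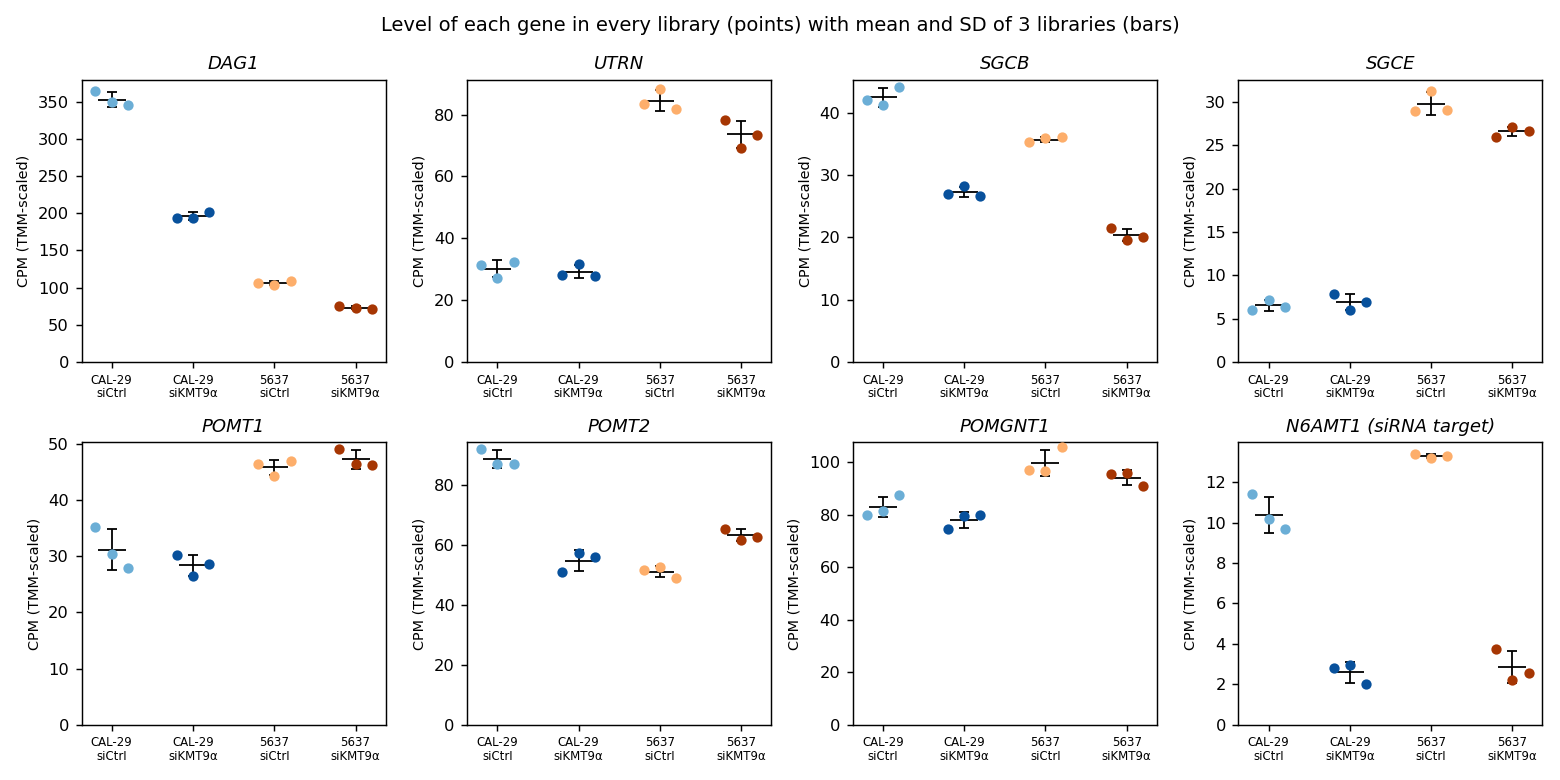
CPM (linear axis from 0) of the 7 genes and of the siRNA target N6AMT1 in each of the 12 libraries, with points for libraries and bars for the mean and SD of 3 libraries in each cell line and siRNA group. DAG1 and SGCB are lower in every siKMT9α library of both lines, and POMT2 falls from 88.6 to 54.7 CPM in CAL-29 cells and rises from 51 to 63.2 CPM in 5637 cells.

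DAG1 lies on the plus strand of chromosome 3 (hg19, chr3:49506146-49573051) and had the highest level per kilobase of the 7 genes in CAL-29 cells. Its 3 siCtrl libraries in CAL-29 cells held 365, 350 and 346 CPM, and its siKMT9α#1 libraries 193, 193 and 202 CPM. All 3 knockdown libraries lay below all 3 controls, and the level fell by 44.6% (log2 fold change −0.85 ± 0.05 SE, adjusted p = 1.24e-12). In 5637 cells the siCtrl libraries held 106, 103 and 109 CPM and the knockdown libraries 75.8, 72.4 and 71.1 CPM. The groups again did not overlap, and the level fell by 31.1% (log2 fold change −0.54 ± 0.04 SE, adjusted p = 5.22e-13).

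The decrease of DAG1 was 0.30 ± 0.06 log2 units larger in CAL-29 cells by the interaction of line and siRNA over 12 libraries (difference −0.30, adjusted p = 9.47e-05), which did not pass 1e-06. With DESeq2 this difference of −0.32 did pass. DAG1 is among the genes that the study itself picked from these libraries for qRT-PCR, so its direction here is not independent evidence. The 13 deposited transcripts of DAG1 share most of their reads. Each held at least 97.9% of the counts of the transcript used for CAL-29 cells and at least 98.1% of those for 5637 cells, so the transcripts cannot be told apart in these tables.

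The 3′ UTR of DAG1 also holds 1 copy of the 7 letters ACATTCA, the complement of bases 2 to 8 of the siKMT9α#1 guide as the study's methods give it. The stretch of DAG1 is shown beside the stretch of N6AMT1 that the siRNA was designed to match, both from GRCh37 (the assembly that hg19 denotes) and 5′ to 3′, with the 7 letters in capitals. The DAG1 stretch lies on the plus strand at chr3:49572916-49572945, with the first of the 7 letters at base 2295 after the stop codon, and the N6AMT1 stretch on the minus strand at chr21:30254500-30254524, in the coding sequence.
DAG1: gagccaatctcACATTCAagtgttcaccaa
N6AMT1: acgctgtaacaaagttcACATTCAa

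The canonical 3′ UTR of 1761 of the 12460 genes with such a UTR that were tested in both lines (14.1%) holds ACATTCA on the transcript strand. Their median on the log2 scale was −0.29 for CAL-29 and −0.34 for 5637 cells, beside 0.05 and 0.03 for the 10699 genes without it. Of the 7 genes, DAG1 alone holds the letters in the canonical 3′ UTR, and SGCE holds 1 copy in its longest annotated 3′ UTR only. SGCB and POMT2 hold none in either. The letters are a description and not a shown site, and their part in the decrease of DAG1 was not tested.

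SGCB, which encodes β-sarcoglycan (minus strand, chr4:52886872-52904465), was downregulated in both lines. In CAL-29 cells it went from 42.1, 41.2 and 44.1 CPM to 27, 28.3 and 26.6 CPM. In 5637 cells it went from 35.3, 35.9 and 36.1 CPM to 21.5, 19.6 and 20.1 CPM. The groups did not overlap in either line, and the decreases were by 35.6% (log2 fold change −0.63 ± 0.06 SE, adjusted p = 9.57e-09) and by 43% (−0.81 ± 0.06 SE, adjusted p = 2.54e-13). The responses of the lines differed by 0.19 ± 0.08 log2 units (adjusted p = 0.0485), short of 1e-06.

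SGCE, which encodes ε-sarcoglycan, the sarcoglycan found widely outside muscle (minus strand, chr7:94153516-94285884), did not pass the threshold. In CAL-29 cells it held 6, 7.19 and 6.35 CPM with siCtrl and 7.79, 5.95 and 6.92 CPM with siKMT9α#1. The groups overlapped, and the 95% interval of the log2 fold change ran from −0.20 to 0.35. In 5637 cells 29, 31.3 and 29.1 CPM stood against 26, 27.1 and 26.7 CPM (log2 fold change −0.16 ± 0.06 SE, adjusted p = 0.0111). The 3 knockdown libraries of 5637 cells lay below the 3 controls without reaching 1e-06.

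UTRN, which encodes utrophin (plus strand, chr6:144606471-145174170), held 31.2, 27 and 32.2 CPM in CAL-29 siCtrl cells and 28.1, 31.7 and 27.8 CPM upon knockdown. These overlap, with a 95% interval of the log2 fold change from −0.20 to 0.11. The 5637 libraries held 83.5, 88.2 and 81.7 CPM and then 78.1, 69.2 and 73.4 CPM, with no overlap and a log2 fold change of −0.20 ± 0.04 SE (adjusted p = 0.000203). The difference between the lines was 0.17 ± 0.09 log2 units (adjusted p = 0.102), so a response particular to 5637 cells was not shown.

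POMT2 (minus strand, chr14:77741299-77787226) was the 1 gene of the 7 called in opposite directions in the lines. In CAL-29 cells it fell from 92, 87 and 86.9 CPM to 50.8, 57.3 and 55.9 CPM (log2 fold change −0.70 ± 0.05 SE, adjusted p = 3.95e-10). The level in 5637 cells went from 51.5, 52.5 and 48.9 CPM up to 65.3, 61.5 and 62.7 CPM (0.31 ± 0.04 SE, adjusted p = 4.09e-07). No library overlapped with the other group in either line.

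The difference between the responses of POMT2 was −0.99 ± 0.07 log2 units (adjusted p = 1.52e-12). POMT2 was the 1 gene of the 7 that passed 1e-06 in this test, where 15.7% of 15395 genes passed, 8.62% with the higher value in CAL-29 cells and 7.11% with the lower. At an adjusted p below 0.05 the difference was lower for DAG1 and POMT2 and higher for SGCB, where 50.4% of all genes were called, 21.9% lower and 28.5% higher. Of the 13674 genes tested in both lines, 1.76% passed in opposite directions. The increase in 5637 cells kept its direction in all alternatives but was short of 1e-06 in 5 of them, with log2 fold changes of 0.256 when scaled by total counts, 0.311 with all rows of a gene summed, 0.312 in the joint model, 0.279 without siCtrl replicate 3 and 0.32 without siKMT9α#1 replicate 3.

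POMT1 (plus strand, chr9:134378176-134399193), the partner of POMT2, did not pass the threshold in either line. It held 35.2, 30.5 and 27.9 CPM in CAL-29 siCtrl cells and 30.2, 26.5 and 28.6 CPM upon knockdown. The 5637 libraries held 46.4, 44.3 and 47 CPM and then 49.2, 46.4 and 46.3 CPM. The libraries overlapped in both lines, and the 95% intervals of the log2 fold change ran from −0.30 to 0.03 and from −0.05 to 0.14. An antisense gene overlaps 1.86% of the exon bases of POMT1, and the transcript with the most counts was not the same in the lines.

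The ratio of the POMT partners followed POMT2. The ratio of POMT2 to POMT1 was taken per kilobase of each canonical transcript, whose length need not be that of the transcript counted. It was 1.64, 1.79 and 1.95 in the siCtrl libraries of CAL-29 cells and 1.05, 1.36 and 1.23 upon knockdown. For 5637 cells the ratio was 0.696, 0.742 and 0.653 with siCtrl and 0.832, 0.832 and 0.849 with siKMT9α#1. By these lengths POMT2 was the higher of the pair in every CAL-29 library and the lower in every 5637 library. Whether this order holds with other lengths was not tested. No separate test was run on the ratio.

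POMGNT1 (minus strand, chr1:46654355-46685977), the transferase that acts after the POMT pair, did not pass the threshold. In CAL-29 cells 80.0, 81.3 and 87.4 CPM stood against 74.5, 79.6 and 79.8 CPM. In 5637 cells 97, 96.7 and 106 CPM stood against 95.5, 96.1 and 90.9 CPM. All knockdown libraries lay below their controls, yet the log2 fold change was −0.09 ± 0.05 SE in CAL-29 cells (adjusted p = 0.131) and −0.09 ± 0.04 SE in 5637 cells (adjusted p = 0.0609). The lower ends of the 95% intervals were −0.20 and −0.17.

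Counted by libraries that did not overlap, 4 of the 7 genes were lower in CAL-29 cells, and 5 were lower and 1 higher in 5637 cells. Such a separation was common among all genes tested: 72.3% for CAL-29 (36.7% lower and 35.6% higher) and 72.4% for 5637 cells (36.6% lower and 35.8% higher). At an adjusted p below 0.05, 3 of the 7 were called in CAL-29 cells, each lower, beside 69.5% of all genes (35.2% lower and 34.3% higher). In 5637 cells 4 were lower and 1 was higher, beside 70.7% of all genes (35.6% lower and 35.1% higher). Of all genes tested in both lines, 8.49% were lower in both at 1e-06, as DAG1 and SGCB were.

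**Figure D2:**
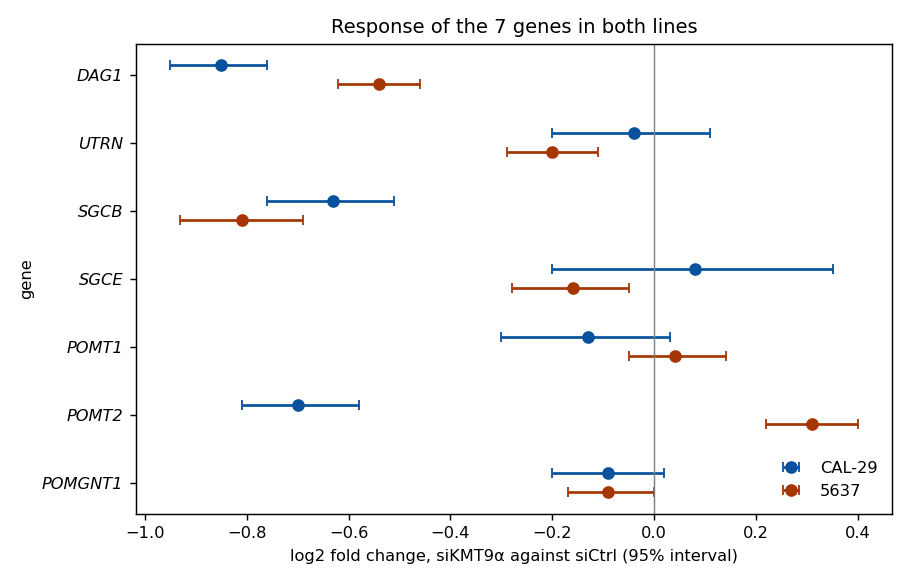
Log2 fold change of the 7 genes for siKMT9α#1 against siCtrl, with CAL-29 cells in blue and 5637 cells in brown and bars for 95% intervals of the fit. DAG1 and SGCB lie left of 0 in both lines, POMT2 lies at −0.70 and 0.31, and the intervals of POMT1 include 0 in both lines.

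The lines differed in these genes before any knockdown. In siCtrl cells DAG1 was 3.18-fold higher in CAL-29 than in 5637 cells (log2 difference 1.67 ± 0.04 SE, adjusted p = 1.05e-24), and POMT2 was 1.66-fold higher (0.73 ± 0.05 SE, adjusted p = 3.98e-14). SGCE was lower in CAL-29 cells (−2.26 ± 0.09 SE, adjusted p = 5.74e-20), as was UTRN (−1.55 ± 0.06 SE, adjusted p = 1.15e-19). POMT1 and POMGNT1 were lower by smaller amounts (−0.63 and −0.34), and SGCB differed by 0.18 ± 0.05 SE (adjusted p = 0.00328), short of 1e-06. With 2 higher and 4 lower, 6 of the 7 genes passed 1e-06, where 59.8% of all genes passed, 29.0% higher and 30.7% lower. POMGNT1 was short of it in 4 alternatives, among them those without CAL-29 siCtrl replicate 2 (−0.326) and without 5637 siCtrl replicate 3 (−0.299).

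Levels of different genes were compared per kilobase of the canonical transcript, whose length need not be that of the transcript counted. In CAL-29 siCtrl cells DAG1 came first (65.6 ± 1.9 CPM per kb, SD, n = 3), above 92.7% of the genes with a known length, and was followed by POMGNT1 (30.5), POMT2 (18.2), POMT1 (10.2), SGCB (9.99), SGCE (3.49) and UTRN (2.33). The libraries of POMT1 and SGCB overlapped, so these neighbours are not ordered. In 5637 siCtrl cells POMGNT1 came first (36.7 ± 1.85), before DAG1 (19.7), SGCE (16), POMT1 (15), POMT2 (10.5), SGCB (8.41) and UTRN (6.54). Here the lowest library of SGCE (15.5) and the highest of POMT1 (15.4) nearly met.

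Upon knockdown DAG1 remained the highest of the 7 in CAL-29 cells at 36.3 ± 1.02 CPM per kb (SD, n = 3), above 85.4% of genes. In 5637 cells it fell from the second to the fourth place with 13.6 ± 0.447 CPM per kb. There the libraries of DAG1 overlapped with those of SGCE (14.2) and of POMT2 (13), and SGCB took the last place (4.8) below UTRN (5.69).

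**Figure D3:**
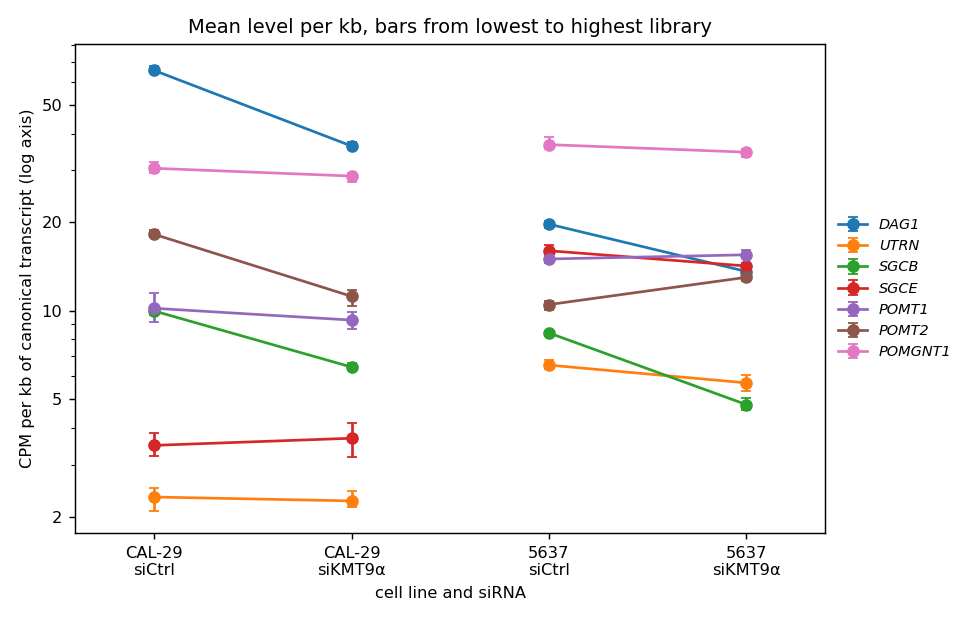
Mean CPM per kb of canonical transcript (log axis) of the 7 genes in the 4 groups, with bars from the lowest to the highest of 3 libraries and lines joining siCtrl to siKMT9α#1 within a line. DAG1 falls from 65.6 to 36.3 in CAL-29 cells and from 19.7 to 13.6 in 5637 cells, where it meets SGCE and POMT2.

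The genes whose profile over the 12 libraries was most like that of a member were found by the root mean square of the difference in log2 CPM after each gene was centred, over 15394 other genes. For DAG1 they were ZKSCAN2 (0.05), ITPKC (0.07) and TRIM29 (0.09). For SGCB they were ZCCHC10 (0.07), RCOR1 (0.08) and CLDND1 (0.08). For POMT2 they were TM4SF1 (0.06), FRMD6 (0.07) and LAMA5 (0.08), the last of which is a laminin chain described below. The likeness includes the difference between the lines and is a description.

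The partners of dystroglycan under the membrane were few in these cells. Of 18 genes for dystrophin, syntrophins, dystrobrevins, the other sarcoglycans and linkers, 8 were tested in the CAL-29 fit and 9 in the 5637 fit. In CAL-29 cells 1 was higher and 3 were lower at 1e-06, beside 15.0% and 15.0% of all genes, and in 5637 cells 1 was higher and 1 lower, beside 18.0% and 17.6%. The median log2 fold change was −0.27 and −0.34, beside −0.02 and −0.01 over all genes. The sarcoglycans SGCA, SGCD and SGCZ, the syntrophins SNTG1 and SNTG2, CAV3 and NOS1 reached at most 5 counts in any library and were not tested in either line.

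SSPN, which encodes sarcospan, the membrane protein bound to the sarcoglycans, fell in both lines. Its mean went from 15.2 ± 1.53 to 7.56 ± 0.692 CPM (SD, n = 3) in CAL-29 cells (log2 fold change −1.0 ± 0.11 SE, adjusted p = 4.66e-08) and from 8.18 ± 0.135 to 2.2 ± 0.241 CPM in 5637 cells (−1.89 ± 0.12 SE, adjusted p = 7.42e-14). Its canonical 3′ UTR is among those of 3 of the 8 partners examined that hold ACATTCA. The other holders, DMD and the syntrophin SNTB2, did not fall as SSPN did. DMD, described below, was higher in every knockdown library than in the siCtrl libraries of the same line. SNTB2 held 67.9, 67.1 and 71.7 CPM in CAL-29 siCtrl cells and 72.4, 71.9 and 70.4 CPM upon knockdown. In 5637 cells SNTB2 held 28.0, 28.8 and 29.7 CPM and then 34.0, 29.6 and 29.6 CPM. GRB2, an adaptor that binds β-dystroglycan and receptor tyrosine kinases, rose in both lines by 0.49 log2 units (SE 0.05 and 0.03, adjusted p = 9.66e-09 and 2.64e-13).

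PLEC, which encodes the cytolinker plectin, fell in CAL-29 cells from 1880 ± 271 to 1141 ± 34.5 CPM (−0.72 ± 0.07 SE, adjusted p = 1.72e-08) and had a log2 fold change of 0.07 ± 0.03 SE in 5637 cells (adjusted p = 0.0348). The responses differed by −0.78 ± 0.09 log2 units (adjusted p = 1.1e-08). DTNA, which encodes α-dystrobrevin, fell in CAL-29 cells from a mean of 56.5 to 2.5 counts per library (adjusted p = 1.67e-08), too few upon knockdown for a fold to be given. In 5637 cells DTNA was also low and went from a mean of 23 to 7.83 counts (adjusted p = 0.00627), short of 1e-06. DMD, which encodes dystrophin itself and was chosen for mention after its values were seen, went the other way in CAL-29 cells, from 2.45, 2.62 and 2.46 CPM to 4.48, 5.0 and 4.1 CPM (0.86 ± 0.16 SE, adjusted p = 9.78e-05), short of 1e-06. In 5637 cells its libraries held 8.40, 10.1 and 9.57 CPM and then 11.5, 10.9 and 12.4 CPM (0.31 ± 0.09 SE, adjusted p = 0.00319), also short of it. Of the 18 deposited transcripts of DMD, the transcript with the most counts was not the same in the lines, so these levels are not of 1 transcript.

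All 25 genes of the glycosylation list, which covers the later enzymes of the O-mannose chain and the supply of dolichol-linked and nucleotide sugars, were tested. In CAL-29 cells 5 were higher, 4 were lower and 16 did not pass, and the median log2 fold change was 0.00. In 5637 cells 4 were higher, 4 were lower and 17 did not pass, and the median was −0.02. Of all genes tested, 15.0% were higher and 15.0% lower in CAL-29 cells, and 18.0% were higher and 17.6% lower in 5637 cells.

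POMGNT2, which adds N-acetylglucosamine to the O-mannose of dystroglycan, fell from 22.3 ± 0.939 to 9.65 ± 0.516 CPM (SD, n = 3) in CAL-29 cells and from 22.9 ± 2.03 to 10.2 ± 0.324 CPM in 5637 cells (log2 fold change −1.21 ± 0.09 and −1.16 ± 0.08 SE, adjusted p = 7.33e-11 and 6.86e-14). It is the 1 gene of the 25 whose canonical 3′ UTR holds ACATTCA. POMK, the kinase that phosphorylates this mannose, fell by 1.22 ± 0.12 log2 units in CAL-29 cells and fell by 1.57 ± 0.14 in 5637 cells (adjusted p = 2.5e-08 and 3.98e-11).

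RXYLT1, the xylosyltransferase of the same chain, rose in CAL-29 cells by 0.68 ± 0.09 log2 units (adjusted p = 5.57e-07), a call lost without siCtrl replicate 2 (0.676), knockdown replicate 1 (0.687) or knockdown replicate 2 (0.628), and with the rows of a gene summed (0.683).

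Among the genes of sugar supply, DOLPP1, which recycles dolichyl pyrophosphate, rose by 0.67 ± 0.06 log2 units in CAL-29 cells and by 0.85 ± 0.04 in 5637 cells (adjusted p = 2.11e-09 and 4.34e-17). PMM2, the phosphomannomutase, rose by 0.48 ± 0.05 and 0.54 ± 0.05 (adjusted p = 5.19e-08 and 2.95e-11). SRD5A3, which makes dolichol, rose in CAL-29 cells from 14 ± 1.57 to 29.5 ± 1.24 CPM (1.08 ± 0.08 SE, adjusted p = 3.21e-10) and had a log2 fold change of 0.24 ± 0.08 SE in 5637 cells (adjusted p = 0.0112). The difference between the lines was 0.85 ± 0.12 log2 units (adjusted p = 4.89e-07), and with the rows of a gene summed (0.839) it was short of 1e-06.

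**Figure D4:**
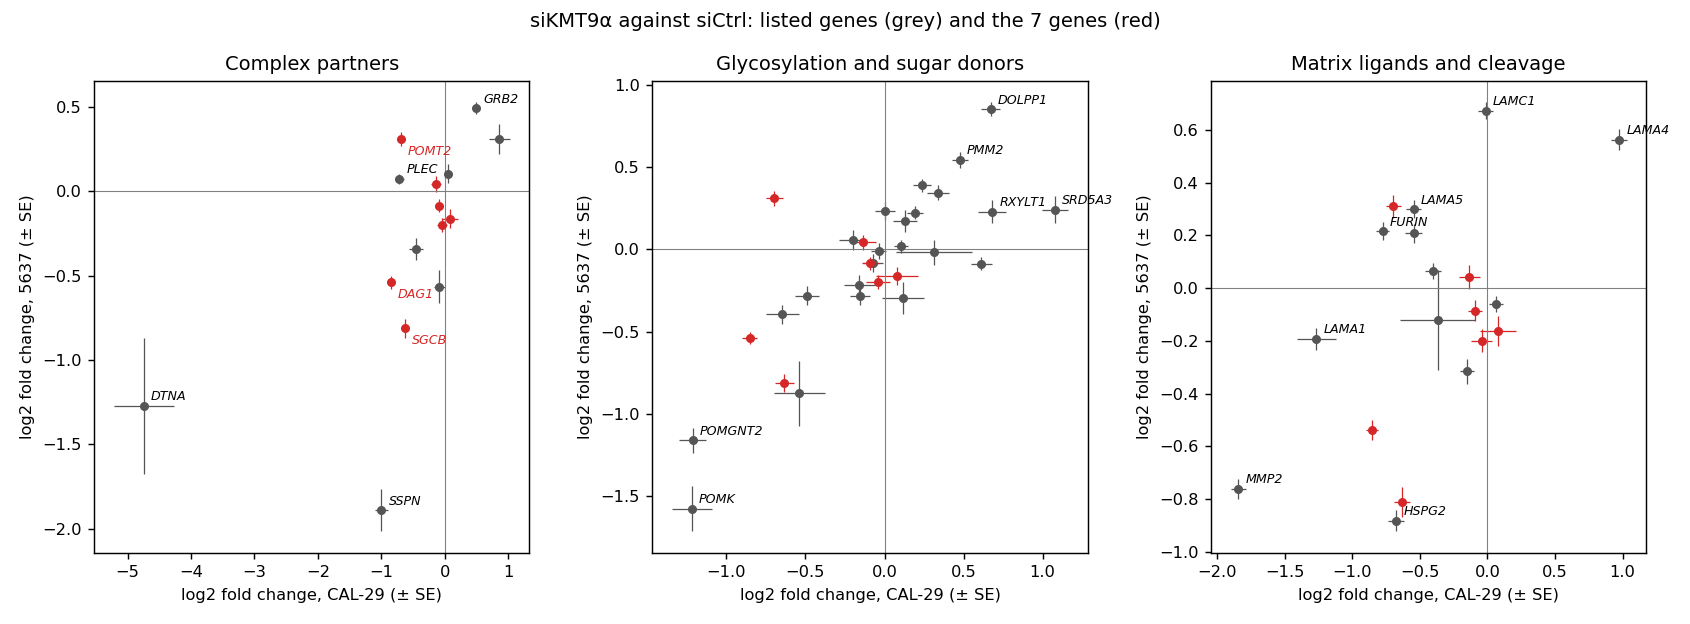
Log2 fold change for siKMT9α#1 against siCtrl in CAL-29 cells (horizontal) and 5637 cells (vertical) of genes of 3 lists tested in both lines (grey) and of the 7 genes (red, repeated in each panel), with bars for the SE. SSPN, POMGNT2, POMK, HSPG2 and MMP2 lie with DAG1 and SGCB at the lower left, LAMA5 and FURIN lie with POMT2 at the upper left, and the position of DTNA rests on 2.5 counts per knockdown library in CAL-29 cells.

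Of 19 genes for ligands of dystroglycan and for proteases that act on it or its surroundings, 13 were tested in each line. In CAL-29 cells 1 was higher and 6 were lower, where 15.0% of all genes passed in each direction, and the median log2 fold change was −0.55 (−0.02 over all genes). For 5637 cells 5 were higher and 3 lower, where 18.0% and 17.6% of all genes passed, and the median was 0.07 (−0.01 over all genes). None of the 12 tested in both lines with a canonical 3′ UTR holds ACATTCA.

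HSPG2, which encodes the ligand perlecan, fell in both lines, from 473 ± 37.7 to 297 ± 20 CPM (SD, n = 3) in CAL-29 cells and from 761 ± 19.8 to 413 ± 33.3 CPM in 5637 cells (log2 fold change −0.67 ± 0.06 and −0.88 ± 0.04 SE, adjusted p = 2.37e-09 and 8.48e-18). MMP2, a gelatinase that can cleave β-dystroglycan, fell from 175 ± 3.41 to 48.6 ± 4.28 CPM and from 192 ± 8.38 to 113 ± 3.36 CPM (−1.84 ± 0.06 and −0.76 ± 0.04 SE, adjusted p = 1.25e-16 and 6.02e-17). The laminin chain LAMA4 rose in both lines, by 0.97 ± 0.06 and 0.56 ± 0.04 log2 units (adjusted p = 2.77e-12 and 2.04e-13).

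The laminin chain LAMA5 and FURIN, a proprotein convertase, moved as POMT2 did. LAMA5 fell by 0.55 ± 0.06 log2 units in CAL-29 cells and rose by 0.30 ± 0.03 in 5637 cells (adjusted p = 3.71e-08 and 2.52e-09), and the responses differed by −0.83 ± 0.07 (adjusted p = 4.97e-11). In the joint model the rise in 5637 cells (0.302) was short of 1e-06. FURIN fell by 0.78 ± 0.05 and rose by 0.22 ± 0.03 (adjusted p = 5.04e-12 and 9.64e-07), with a difference of −0.98 ± 0.05 (adjusted p = 7.15e-15). The rise of FURIN in 5637 cells was short of 1e-06 in 8 alternatives, among them each of those without a siCtrl library (0.219, 0.208 and 0.224) and those without knockdown replicate 2 (0.215) or 3 (0.231).

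LAMA1 fell by 1.27 ± 0.14 log2 units in CAL-29 cells (adjusted p = 1.28e-07) from a mean of 7.41 CPM, and stood at 171 and 149 CPM in 5637 cells (−0.19 ± 0.04 SE, adjusted p = 0.000172). The CAL-29 call was lost with the rows of a gene summed (−1.26), and the 5637 value passed 1e-06 without knockdown replicate 1 (−0.26) and with no filter on low counts (−0.187). LAMC1, the γ chain of most laminins, rose in 5637 cells from 575 ± 11.1 to 916 ± 32.9 CPM (0.67 ± 0.03 SE, adjusted p = 2.41e-17) and stood at 630 ± 49.1 and 624 ± 15.4 CPM in CAL-29 cells (adjusted p = 0.857). SLIT2, a secreted ligand that binds dystroglycan, rose in 5637 cells by 0.75 ± 0.09 log2 units (adjusted p = 2.3e-08) and reached at most 4.5 counts in CAL-29 cells. With the rows of a gene summed, its rise (0.748) was short of 1e-06.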

How the data were processed

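RNAseq libraries of CAL-29 and 5637 cells were analysed, with 3 libraries for each siRNA in each line. Per the study's methods, STAR was used by the authors for alignment to hg19, HOMER for counting and edgeR for testing. For 37400 RefSeq transcripts of 23064 symbols, the deposited values are estimated counts in steps of 0.5 that were not normalized. Of these counts 37.3% were not whole. The tables also hold the authors' own p-values, adjusted p-values and log2 fold changes, which were not used. Several transcripts of a gene can hold the same reads, and strand use in counting is not given in the sources used here.

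Of the transcripts of a symbol, the 1 with the highest sum in a fit (6 libraries for a line, 12 for the joint fit) was kept and rounded. In edgeR 4.0.16 (R 4.3.3), libraries were scaled with TMM, low genes were removed with filterByExpr by group, and the quasi-likelihood F test was run in each line. A group means model of 12 libraries gave the difference between the responses and between the siCtrl groups. The study's threshold, an unadjusted p below 1e-06, made a call, with Benjamini-Hochberg adjusted p over all genes beside it. The SE is the size of the log2 fold change divided by the square root of F, and 95% intervals use the t quantile of the fit. The smallest p of an exact permutation test of 3 against 3 libraries is 0.1. The tests were tested on simulated counts first. Positions, transcript lengths and 3′ UTRs came from GENCODE 44 on GRCh37, read with pandas 2.3.3 in Python 3.11.15.

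The 7 genes and all lists were chosen with earlier results of these data known. Of the wider lists, each gene past 1e-06 in both lines and up to 3 more per list with the largest change past it in 1 line were named, except that some genes of the lists are counted but not reported here. The sample titles and descriptions number the siRNA replicates differently, and the titles were used. Alternatives were other filters and scalings, DESeq2 1.42.0, a term for the replicate number, all transcripts, counts summed per symbol or not rounded, an adjusted p below 0.05, a joint model and each library left out in turn. Both the spread between libraries and the count limit the precision, the count more so for low genes.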

Additional observations from a re-analysis of the deposited data

Results flagged for a closer look

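For 9 of the genes named above, the response to siKMT9α#1 differed between CAL-29 and 5637 cells at an interaction p below 1e-06, in a test that 15.7% of all genes passed. Apart from POMT2, these genes were named because they passed 1e-06 in 1 or both lines. Their number therefore cannot be set against the share over all genes. For POMT2 the difference, CAL-29 minus 5637, was −0.99 log2 units, with a decrease in all 3 knockdown libraries of CAL-29 cells and an increase in all 3 of 5637 cells. The reagent, the siRNA concentration and the medium differed with the line and cannot be told apart from it. LAMA5 (−0.83) and FURIN (−0.98) also had opposite directions in the lines. MMP2 (−1.06) fell in both lines and more so in CAL-29 cells, and LAMA4 (0.43) rose in both, a difference that was short of 1e-06 in 15 alternatives. PLEC (−0.78), LAMA1 (−1.06), SRD5A3 (0.85) and LAMC1 (−0.67) passed 1e-06 in 1 line only.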

How the results depend on the processing

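DAG1 and SGCB kept their direction and their call in both lines in every alternative, as did POMT2 in CAL-29 cells and in the difference between the lines. The number of the 7 genes higher in 5637 cells was 0 in place of 1 with total counts, with rows summed per symbol and in the joint model, and between 0 and 1 with 1 library left out. With DESeq2, 2 of the 7 genes were lower in the difference between the lines. At an adjusted p below 0.05, 4 of the 7 genes were lower in 5637 cells, and 2 were lower and 1 was higher in the difference. Over all genes, this threshold called 10194 in CAL-29 cells (5026 higher, 5168 lower), 10138 in 5637 cells (5029 and 5109) and 7764 in the difference (4395 and 3369). With every transcript kept the counts were 7863 (3846 and 4017), 9248 (4584 and 4664), 4482 (2282 and 2200) and, between the siCtrl groups, 16322 (8045 and 8277), since more features were tested. In the difference 2000 genes were higher without a filter and 2041 with total counts, where 72.4% of the calls were higher in place of 54.8%, and the median of all genes stood at 0.16 in place of 0.04. The share higher in CAL-29 cells stood at 59.4% with total counts, against 49.8%.

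With 1 library left out, genes called ranged from 3119 to 5469 in CAL-29 cells, 4288 to 4974 in 5637 cells, 2032 to 2785 in the difference and 8379 to 9228 between the siCtrl groups. Of the 7 genes, 3 or 4 were then lower between the siCtrl groups. Signs turned only for log2 values near 0 that were not called. In CAL-29 cells UTRN stood at 0.0367 with total counts and between −0.111 and 0.021 with 1 library left out, SGCE between −0.021 and 0.182 with 1 library left out, and LAMC1 at 0.0683 with total counts, 0.0065 in the joint model and between −0.041 and 0.0554 with 1 library left out. POMT1 in 5637 cells stood at −0.0117 with total counts. The difference of POMGNT1 stood at −0.0069 with the size factors or the test of DESeq2, at −0.003 with every transcript and between −0.0266 and 0.0562 with 1 library left out. The causes were not tested.

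Whether the replicate numbers pair the samples was not settled. Deviations of same-numbered libraries correlated between −0.01 and 0.08, and those of differently numbered libraries between −0.08 and 0.04. With the number as a block, 6327 genes were called in CAL-29 cells in place of 4402, and 5378 in 5637 cells in place of 5104. In the difference 2915 were called in place of 2421, and between the siCtrl groups 9667 in place of 9204. The calls of the 7 genes were as without the block. Depth limits DTNA upon knockdown and the sarcoglycans SGCA, SGCD and SGCZ.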
